A study of Mus musculus with 8 samples.

Results

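The branching enzymes of N-glycans are Golgi glycosyltransferases that add N-acetylglucosamine to the mannose core of sugars on secreted and surface proteins. The genes described here are Mgat1, Mgat2, Mgat3, Mgat4a, Mgat4b and Mgat5. Their members are the deposited Bcl11b ChIP-seq intervals of 201 bp whose midpoint has one of these genes as its nearest protein-coding gene body within 100 kb (mm10 positions from RefSeq). There were 75 such intervals of 63098 with a normalized value: 37 for Mgat5, 23 for Mgat4a, 5 for Mgat1, 4 each for Mgat3 and Mgat4b, and 2 for Mgat2. A further 21 intervals of these genes had too few reads to be tested. Mgat5 was taken up because 1 of its intervals was higher in mutant thymocytes, so the genotype contrast at all 75 intervals is given as a description, and calls there are counted without being read as evidence.

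Bcl11b binds DNA through zinc fingers, and thymocytes depend on it to commit to the T lineage. Chromatin of mouse thymocytes was pulled down with a rabbit anti-Bcl11b antibody. The 2 genotypes were Bcl11b+/+ (wild type) and Bcl11b+/N440K, in which 1 allele carries the N440K exchange and the other allele is wild type, with 3 ChIP libraries each. The labels give no age, sex or strain, and do not say whether libraries came from separate animals or whether the antibody separates the mutant from the wild type protein. Signal has no background subtracted, since the 2 wild type input libraries were not used here. Signal is in CPM, read counts scaled by the authors. The divisor matches each library's reads in the tested intervals times its TMM scaling factor. Such scaling centres the libraries, so a general change in binding would not be seen. All intervals have the same length, so levels need no scaling by length between genes. Differences in background between intervals were not corrected.

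Mgat1 starts the conversion of mannose-rich sugars to complex ones, and Mgat2 follows to give the plain biantennary form. Mgat4a, Mgat4b and Mgat5 add further branches, and Mgat3 adds a bisecting residue that hinders further branching. Mgat5 branches are extended to chains that galectins bind, and in T cells this lattice is known to restrain clustering of the T cell receptor and to hold receptors at the surface.

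Counts in the tested intervals ranged from 1609762 to 2400250 per library. Over the whole table, 720 of 63098 intervals (1.14%) were called, 290 higher (0.46%) and 430 lower (0.681%) in N440K (edgeR quasi-likelihood test, called where the Benjamini-Hochberg adjusted value is under 0.05). All 8 T lineage genes looked up (Cd3d, Cd3e, Cd3g, Cd4, Cd8a, Lck, Rag1 and Ptcra) had tested intervals, 48 in all. Of 3 genes each, 1 myeloid (Itgam) and 1 thymic epithelial gene (Foxn1) had any. Itgam had 13 intervals with up to 57.1 CPM in wild type, where the T lineage genes reached 82.1 CPM. Binding does not measure the transcripts of these markers. A change in signal per cell and a change in the share of cells that are bound cannot be told apart in such libraries.

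The stretches just before the gene bodies of 4 members are shown because Bcl11b intervals lay at or near these ends, among them strong ones of Mgat1, Mgat2 and Mgat5. Stretches of Mgat3 and Mgat4b were not available, although Mgat4b also had tested intervals near an end. They are from RefSeq (GRCm38.p6, the coordinates of mm10), 5′ to 3′ on the gene's strand. Capitals mark matches, on either strand, to 6 words. TGTGGT and TGCGGT are cores of RUNX sites. AGGAAG is an ETS core. AGATAA is a GATA site and CAGNTG is an E-box. TGACCA is the word bound by the related factor Bcl11a. No matches overlap. The stretches are chr11:49243941-49244190 (Mgat1, plus strand), chr12:69183908-69184157 (Mgat2, plus), chr1:37541061-37541266 (Mgat4a, minus) and chr1:127204736-127204918 (Mgat5, plus).

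Mgat1: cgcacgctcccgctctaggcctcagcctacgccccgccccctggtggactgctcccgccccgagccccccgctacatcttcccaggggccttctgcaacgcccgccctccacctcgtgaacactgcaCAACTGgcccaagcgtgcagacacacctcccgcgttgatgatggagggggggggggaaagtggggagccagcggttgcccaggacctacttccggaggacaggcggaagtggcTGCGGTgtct
Mgat2: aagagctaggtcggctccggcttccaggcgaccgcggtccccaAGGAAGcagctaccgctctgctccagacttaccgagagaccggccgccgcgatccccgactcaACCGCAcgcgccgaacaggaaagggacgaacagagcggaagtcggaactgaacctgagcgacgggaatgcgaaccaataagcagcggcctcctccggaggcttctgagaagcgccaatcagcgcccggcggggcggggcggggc
Mgat4a: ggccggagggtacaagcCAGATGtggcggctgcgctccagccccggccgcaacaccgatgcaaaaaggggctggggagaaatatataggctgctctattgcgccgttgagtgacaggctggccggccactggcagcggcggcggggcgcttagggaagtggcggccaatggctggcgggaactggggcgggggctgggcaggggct
Mgat5: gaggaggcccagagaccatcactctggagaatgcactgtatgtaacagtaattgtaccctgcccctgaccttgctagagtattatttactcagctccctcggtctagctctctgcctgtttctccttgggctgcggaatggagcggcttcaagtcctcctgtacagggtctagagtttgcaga

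The Mgat1 stretch holds a whole tested interval, the one from 49243960 to 49244160. A tested interval shared 153 bases with the Mgat4a stretch and 6 bases with the Mgat2 stretch. None reached into the Mgat5 stretch, where the first tested interval was centred 0.335 kb inside the gene body. The Mgat1 and Mgat2 stretches each hold 1 TGCGGT, found in 5.10% of the 32851 RefSeq promoter windows over the same 250 bases. Mgat2 also holds 1 AGGAAG (29.5% of windows). CAGNTG occurs once in Mgat1 (44.8%) and once in Mgat4a (39.0% of windows over 206 bases). The Mgat5 stretch holds none of the 6 words; over its 183 bases, each is found in 3.65% to 35.6% of windows. TGACCA, in 11.4% of windows over 250 bases, was in none of the 4 stretches.

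In wild type thymocytes the mean Bcl11b signal per tested interval was highest at Mgat1 and Mgat2, which had only 5 and 2 such intervals. The mean over the tested intervals was 31.3 ± 0.557 CPM at Mgat1 and 25.9 ± 1.64 CPM at Mgat2 (SD, n = 3 libraries). It was 14.9 ± 0.734 CPM at Mgat5, 14.6 ± 0.806 CPM at Mgat4a, 13.9 ± 0.686 CPM at Mgat3 and 8.64 ± 1.29 CPM at Mgat4b. The wild type libraries of Mgat1 and Mgat2 did not overlap, nor did those of Mgat3 and Mgat4b, while those of Mgat5, Mgat4a and Mgat3 overlapped. The genes share the same 3 libraries, where a two-sided exact permutation test of paired values cannot go below p = 0.25, so no test is given for this order. All tested intervals had a median of 11.9 CPM and a mean of 15.7 CPM. Summed over intervals the order differs, with 551.2 CPM at Mgat5 and 156.4 CPM at Mgat1. The means also depend on which intervals had enough reads to be tested. For Mgat5, 6 had enough only through N440K libraries and 3 only through wild type libraries, and for Mgat4a 1 and 6.

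Single strong sites stood out within the weaker genes. The strongest of all 75 lay 5.90 kb outside the Mgat4a gene body, on the side of its transcription start, at chromosome 1, 37546859 to 37547059. It had 63.8, 58.0 and 61.8 CPM in the wild type libraries, above 99.1% of tested intervals. The next were in Mgat5, at 127214952 with 49.4 ± 3.81 CPM and at 127205154 with 47.9 ± 3.06 CPM, 10.1 kb and 0.335 kb into the gene body. Another strong Mgat5 site, at 127459667 near the far end of the gene, had 38.8 ± 5.63 CPM. The strongest Mgat1 intervals, at 49249938 and 49243960, had 37.3 ± 4.91 and 37.1 ± 2.06 CPM. Mgat2 had 30.1 ± 0.369 CPM at the interval that covers its start, Mgat3 19.6 ± 1.50 CPM inside the gene, and Mgat4b 11.6 ± 3.12 CPM at 0.156 kb outside its gene body (SD, n = 3).

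The genes also differed in how densely they were bound. Mgat5 is a long gene of 283.416 kb, and all 37 of its tested intervals lay inside it, 1.31 per 10 kb. The gene body of Mgat4a spans 101.721 kb and held 20 of its 23 tested intervals, 1.97 per 10 kb. The 4 tested Mgat1 intervals in the body gave 2.12 per 10 kb, the pair in Mgat4b 2.05 and the pair in Mgat3 0.478. Mgat2 spans 2.616 kb, and both of its intervals lay in it. None of these tested intervals lay farther than 5.90 kb from its gene, well inside the limit of 100 kb by which they were chosen. The nearest tested intervals beyond the Mgat5 run were at 127496833, 8.60 kb past the gene and inside Tmem163 (log2 fold change -0.41 ± 0.29, SE), and at 125560895 inside Slc35f5 (0.41 ± 0.24).

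**Figure D1:**
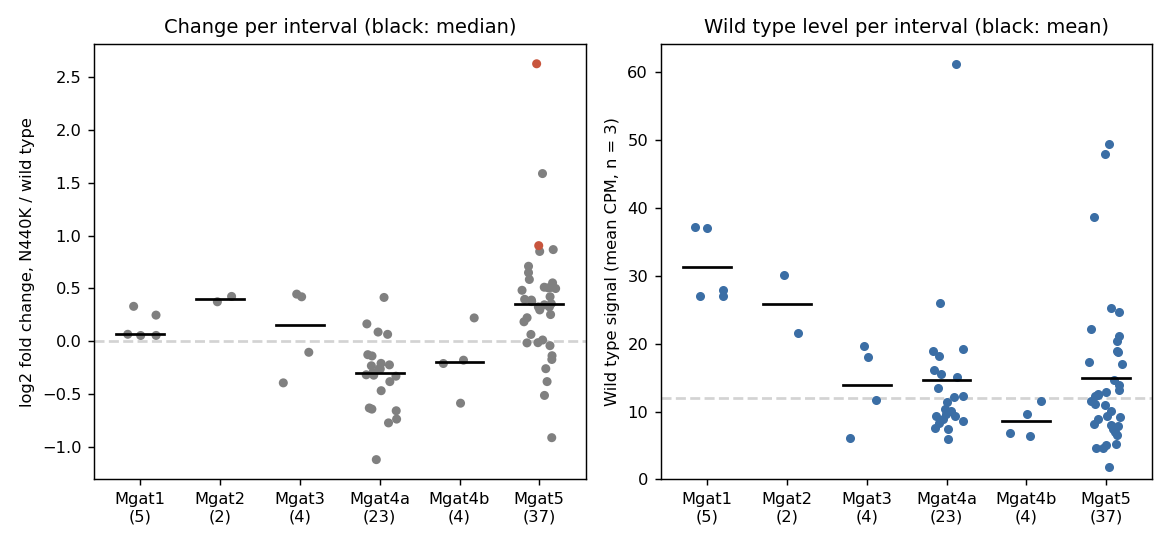
Each point is 1 of the 75 tested intervals, grouped by gene (number of intervals in brackets). Left, log2 fold change of N440K over wild type, with the gene's median in black, the 2 called intervals in red and the median of all tested intervals dashed; right, wild type signal in CPM (mean of 3 libraries), with the gene's mean in black and the median of all tested intervals dashed. The Mgat5 points lie mostly above 0 and the Mgat4a points mostly below it, and the strongest wild type site belongs to Mgat4a.

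The single interval with the largest difference between the genotypes was in Mgat5. This interval at chromosome 1, 127476754 to 127476954, had 6.20, 2.88 and 4.72 CPM in the wild type libraries and 33.2, 26.8 and 22.9 CPM in the N440K libraries. All N440K libraries were thus several times above all wild type libraries, with no overlap. The means were 4.60 ± 1.66 and 27.7 ± 5.21 CPM (SD, n = 3), a 6.01-fold difference and a log2 fold change of 2.63 ± 0.28 (SE). The interval moved from above 2.61% of tested intervals in wild type to above 86.2% in N440K. It lies 271.9 kb from the start-side end of the Mgat5 gene body and 11.5 kb from the other end. Exons and introns were not told apart, and the sequence of this interval was not used here.

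The intervals beside it were higher as well. At 127484278, 7.52 kb farther along, the values were 1.24, 1.24 and 3.00 CPM in wild type, the lowest wild type mean of all 75 intervals, and 5.54, 6.10 and 5.73 CPM in N440K. The genotypes did not overlap there, and the log2 fold change was 1.59 ± 0.53 (SE) from 2, 3 and 7 wild type reads. It was 2.17 without wild type replicate 3. This interval and the gained one met the minimum for testing, 10 reads in a library of median size in at least 3 libraries, only through the N440K libraries, so they had to be high there. At 127470307, 6.45 kb before the gained interval, signal went from 8.05, 9.06 and 10.3 CPM to 17.2, 14.0 and 19.3 CPM. At 127468838, 7.92 kb before it, signal went from 9.91, 15.2 and 13.3 CPM to 26.6, 26.2 and 21.3 CPM, a 1.93-fold difference. At each of these 3 neighbours every N440K library was above every wild type library, with smaller differences than at the gained interval.

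edgeR called 2 of the 75 intervals, both higher and both in Mgat5: those at 127476754 and 127468838. That is 2.67% of the members, beside 1.14% of all tested intervals, and since this contrast chose the genes nothing is read from it. The former, which chose the gene, had a log2 fold change of 2.36 to 2.85 over all fits. The latter lost its call in 5 of 11 other fits, with DESeq2, without wild type replicate 1 or 3 and without N440K replicate 1 or 2, while its log2 fold change stayed between 0.78 and 1.05.

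By position along Mgat5, the differences were greatest in value at the far end. With the gene body cut into 3 equal segments of 94.472 kb, all 11 intervals of the last segment had a positive log2 fold change, with a median of 0.51. In the middle segment 6 of 11 were positive, with a median of 0.33, and in the first 11 of 15, with a median of 0.25. Summed over the last segment, signal was 146.2, 127.6 and 140.8 CPM in wild type and 238.1, 212.3 and 202.0 CPM in N440K libraries, a 1.57-fold difference. The gained interval made up 29.1% of that difference, and without it the sum still differed 1.42-fold, from 133.6 ± 7.93 to 189.8 ± 13.4 CPM (SD, n = 3). The sums of the first and middle segments differed 1.11-fold and 1.13-fold, with the libraries of the genotypes apart in both. Over the 11 other fits the median of the last segment ranged from 0.47 to 0.80. Those of the other segments ranged from 0.08 (without wild type replicate 3) to 0.28 in the first and from 0.10 (without N440K replicate 2) to 0.36 in the middle. The segments were drawn after the intervals had been seen, and 6 Mgat5 intervals met the minimum for testing only through N440K libraries and 3 only through wild type libraries. Of the former, those at 127442801, 127476754 and 127484278 lie in the last segment and had to be high in N440K. None of the latter lies there, so the values of this segment lean upward by selection. The 1.42-fold difference leaves out only the interval at 127476754.

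**Figure D2:**
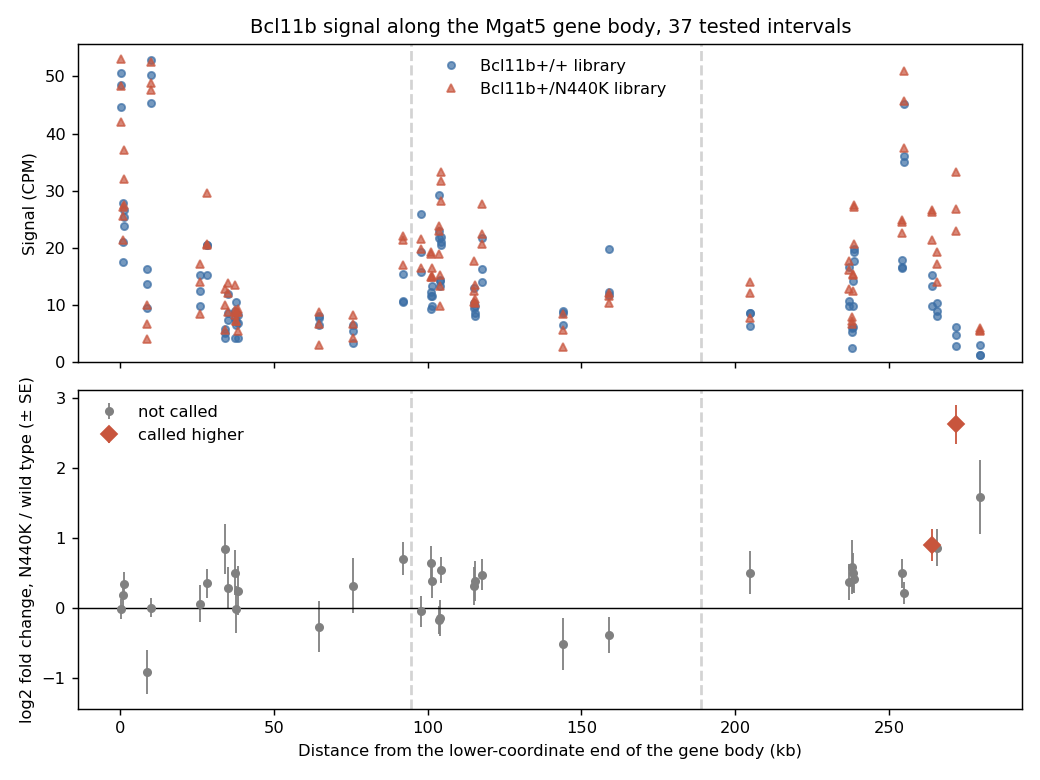
The 37 tested Mgat5 intervals by distance (kb) from the start-side end of the gene body. Top, signal in CPM of each wild type (circles) and N440K library (triangles); bottom, log2 fold change with its SE, called intervals as red diamonds; dashed lines divide the gene into 3 equal segments. Points of the last segment all lie above 0, up to 2.63, while the strongest intervals, at 127205154 and 127214952 near the start, lie close to 0.

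The strongest intervals of Mgat5, at 127205154 and 127214952 near its start, had nearly the same mean in both genotypes. The interval at 127205154 had 44.6, 50.6 and 48.5 CPM in wild type and 42.1, 53.1 and 48.4 CPM in N440K libraries, and the genotypes overlapped (log2 fold change -0.01 ± 0.14, SE). The interval at 127214952 had 50.2, 45.3 and 52.8 CPM and 52.6, 47.6 and 48.9 CPM, also overlapping (0.01 ± 0.14). Less strong intervals near the start had 0.18 ± 0.20 with overlap (127205752) and 0.35 ± 0.18 without overlap (127206086). The strong site at 127459667, in the last segment, had 0.22 ± 0.16, and its libraries overlapped too. The most negative Mgat5 interval, at 127213497, had -0.91 ± 0.32, from 13.6, 9.47 and 16.3 CPM to 9.97, 6.71 and 4.16 CPM, with 1 N440K library inside the wild type range.

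Between these ends, smaller differences without overlap recurred. At 127309275 wild type had 21.1, 20.6 and 21.9 CPM and N440K had 28.2, 31.7 and 33.3 CPM (log2 fold change 0.55 ± 0.19, SE). At 127296915 they had 10.5, 10.7 and 15.5 CPM and 22.1, 17.1 and 21.3 CPM (0.71 ± 0.24). At 127305753 they had 9.29, 12.4 and 11.6 CPM and 15.0, 18.9 and 19.3 CPM (0.65 ± 0.25). Of these intervals edgeR called none. Over the whole gene, the N440K libraries lay above all wild type libraries at 13 of 37 intervals (35.1%) and below them at 0, beside 8.34% and 8.95% of all tested intervals. Besides the 7 named above, these were the intervals at 127206086, 127306172 and 127320198 and, in the last segment, at 127442801, 127443579 and 127459187, with log2 fold changes of 0.35 to 0.59. Over all 75 intervals of the 6 genes, N440K libraries lay above at 16 and below at 6, where 17.3% of all tested intervals had libraries that did not overlap in either direction. Again nothing is read from these shares.

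**Figure D3:**
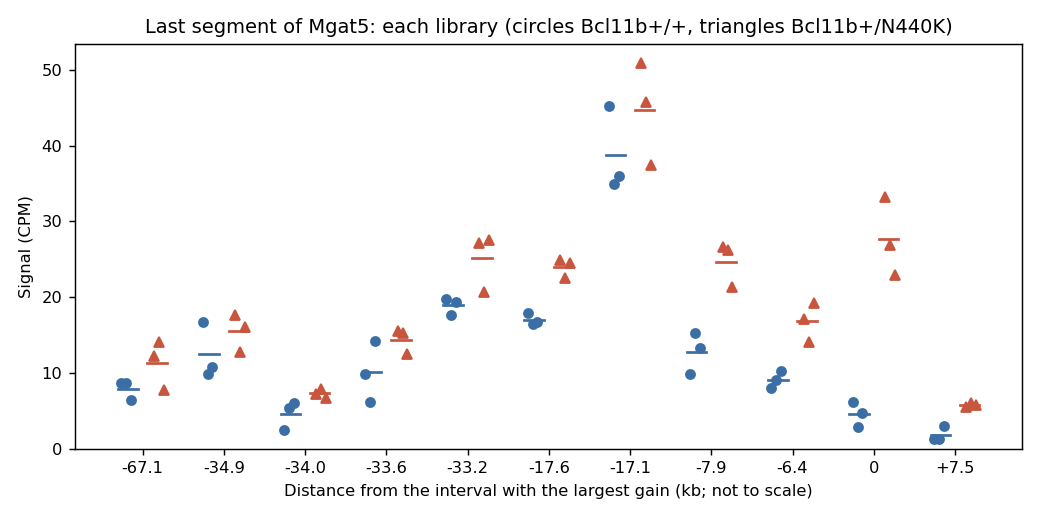
Signal in CPM of each library at the 11 tested intervals of the last Mgat5 segment, in order along the gene and labelled by distance (kb) from the gained interval; horizontal bars are means of 3 libraries. At the 4 intervals on the right, from -7.9 to +7.5 kb, every N440K library lies above every wild type library.

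Mgat5 as a whole had 28 of 37 intervals with a positive log2 fold change and a median of 0.36, beside 50.5% positive and a median of 0.00 over all tested intervals. Without the gained interval the median was 0.35. Summed over the gene, signal was 561.3, 520.4 and 571.7 CPM in wild type and 709.3, 674.2 and 656.9 CPM in N440K libraries, which did not overlap, a 1.23-fold difference. The median was between 0.30 and 0.44 in the 11 other fits. These values include the contrast that chose Mgat5.

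Mgat4a went the other way. Of its 23 intervals, 19 had a negative log2 fold change (82.6%, beside 49.5% of all tested), with a median of -0.30. Among 301 genes with at least 20 tested intervals, this median was number 17 from the lowest. Of these intervals 6 met the minimum for testing only through wild type libraries, and all 6 were among the negative ones; 1 met it only through N440K libraries. Its summed signal was 347.6, 314.1 and 344.7 CPM in wild type and 289.6, 284.3 and 265.5 CPM in N440K libraries, without overlap and 0.834 of the wild type level. None of these intervals was called. The largest difference was at 37479553, inside the gene, with 13.0, 7.82 and 6.01 CPM in wild type and 5.54, 3.05 and 3.12 CPM in N440K libraries (log2 fold change -1.12 ± 0.40, SE). It is among those 6. The N440K libraries lay below all wild type libraries at 5 of 23 intervals (21.7%, beside 8.95% of all tested) and above them at 0. The strong site outside the gene, at 37546859, had 52.6, 45.2 and 58.3 CPM in N440K, and 1 N440K library fell within the wild type range (-0.22 ± 0.13). The interval at 37544373, between that site and the gene, had 0.42 ± 0.27 with overlapping libraries. The median was between -0.38 and -0.19 in the 11 other fits.

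Mgat1 and Mgat2, which act first, had positive values at every tested interval. At Mgat1 all 5 intervals had positive log2 fold changes, from 0.05 to 0.33, and the median was 0.07. Those at 49243960, 49244312 and 49249938 had 0.05 ± 0.16, 0.06 ± 0.18 and 0.07 ± 0.16 (SE), each smaller than its SE. In the 11 other fits 4 or 5 were positive. The interval in the printed stretch had 37.8, 38.7 and 34.8 CPM in wild type and 39.9, 31.7 and 43.2 CPM in N440K libraries, which overlapped. The largest difference, at 49250520, went from 26.6, 28.4 and 26.2 CPM to 38.2, 34.8 and 29.7 CPM, without overlap (0.33 ± 0.17, SE). The Mgat2 median, over 2 intervals, was 0.40, above that of Mgat5, and N440K replicate 2 was the highest library at each. The one over the gene start had 29.7, 30.1 and 30.5 CPM in wild type and 42.1, 44.5 and 31.2 CPM in N440K libraries (0.37 ± 0.17). The other, at 69184445, had 25.4, 18.5 and 21.0 CPM and 23.3, 37.8 and 25.5 CPM, with overlap (0.42 ± 0.20, and 0.20 without N440K replicate 2). No interval of either gene was called.

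Mgat3, whose bisecting residue hinders further branching, had its signal in a pair of neighbouring intervals inside the gene. That at 80192017 had 19.8, 21.0 and 18.0 CPM in wild type and 27.7, 20.7 and 31.2 CPM in N440K libraries, with overlap (0.45 ± 0.20, SE). That at 80192229 had 18.0, 17.7 and 18.5 CPM and 25.5, 20.7 and 26.0 CPM, without overlap (0.42 ± 0.21). Those beyond the gene body, at 80216340 and 80219390, had -0.39 ± 0.43 and -0.10 ± 0.28. Mgat4b, the second Mgat4 enzyme, had 1 positive and 3 negative intervals. The largest difference there, at 50231461, went from 7.44, 13.2 and 8.16 CPM to 7.20, 4.88 and 7.29 CPM (-0.59 ± 0.34), with the libraries just apart, at an interval that met the minimum for testing only through wild type libraries. The summed signal of Mgat4b overlapped between genotypes, as did that of Mgat1, while that of Mgat2 and Mgat3 was higher in all N440K libraries, 1.32-fold and 1.19-fold.

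**Figure D4:**
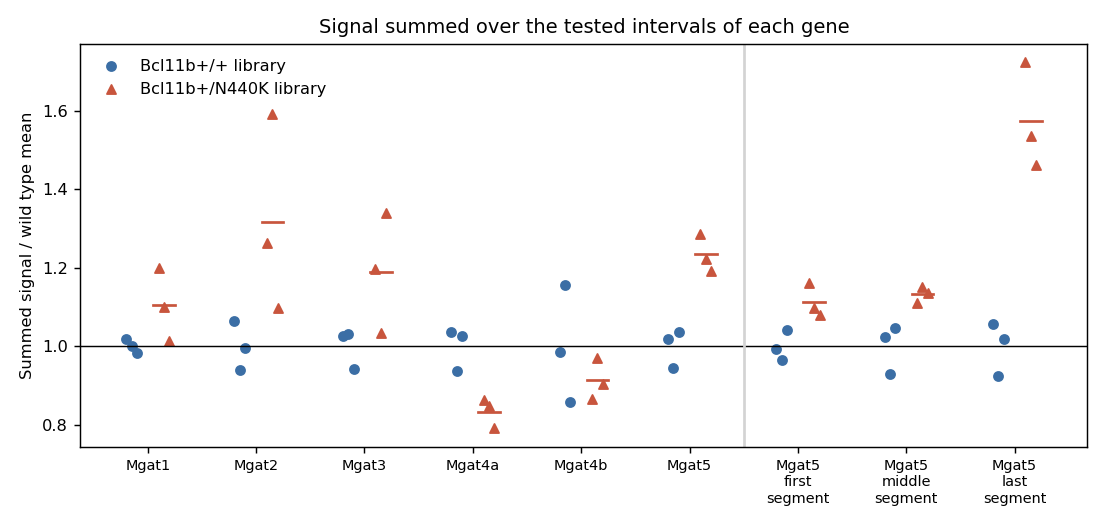
Signal summed over the tested intervals of each gene, divided by the gene's wild type mean (line at 1), for each wild type (circles) and N440K library (triangles, mean as a bar); the right part splits Mgat5 into 3 equal segments. The last Mgat5 segment stands highest at 1.57, and Mgat4a lies below 1 in all N440K libraries at a mean of 0.834.

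The surroundings of Mgat5 held few tested intervals. Within 500 kb of the gained interval, 14 belonged to other genes, all at higher coordinates, in or near Tmem163, Ccnt2 (a cyclin T), Map3k19 and Rab3gap1. Their log2 fold changes ranged from -0.57 to 0.44 with a median of 0.03, and 7 were positive and 7 negative. By edgeR 0 were called, beside 1.14% of all tested intervals, and 0 had an unadjusted p under 0.05, beside 12.7%. With so few intervals nothing is read from either 0. The 4 Mgat5 intervals from 127468838 to 127484278 had higher values than all of them. Of these 4, that at 127476754 chose the gene, and it and that at 127484278 had to be high in N440K to be tested. Nothing is therefore read from the contrast with the other genes.

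The intervals most like the gained one, by Pearson correlation of log2(CPM + 0.5) over the 6 libraries, were sought among those whose mean over all libraries was at or above the median. They lay in Poc1b (r = 0.997), Strada (0.993) and Trabd2b (0.992), 7.16 kb from Rmi2 (0.993) and 0.697 kb from Sumo2 (0.993). Their differences were small, from 1.30-fold to 1.67-fold, and only the Poc1b interval (a centriole protein gene) was called among them. That call was lost with DESeq2, with total counts as library size and on leaving out any library. The Sumo2 and Trabd2b intervals had 9.96 and 8.92 CPM in wild type, below the median of all tested intervals there. With 6 libraries in 2 groups, such correlations mainly follow the genotype.

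No interval of the other N-glycan pathway genes was called. Of 45 genes looked up, 41 had tested intervals, 304 in all, and edgeR called 0 of them, beside 1.14% of all tested intervals. DESeq2 and limma voom, which called 60 and 318 intervals of the whole table, also called 0. At such shares a list of this size would hold few calls or none, so nothing is read from the 0. At an unadjusted edgeR p under 0.05 there were 43 (14.1%, beside 12.7% of all tested). The median log2 fold change was -0.04, with 137 positive and 167 negative. N440K libraries lay above all wild type libraries at 16 intervals (5.26%, beside 8.34%) and below them at 36 (11.8%, beside 8.95%).

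By role, precursor trimming enzymes, which remove glucose and mannose before Mgat2 acts, had 75 intervals at all 8 genes and a median of -0.02. The smallest p there was in Man2a1 (Golgi mannosidase II), where wild type had 14.9 ± 1.44 CPM and N440K 22.7 ± 7.01 CPM (SD, n = 3; adjusted p = 0.192, edgeR). The UDP-GlcNAc and sialic acid supply had 49 intervals at all 11 genes and a median of -0.08. Its smallest p was 4.64 kb from Uap1, which makes the sugar donor of all the branching enzymes, with 11.4 ± 2.23 and 5.45 ± 1.16 CPM (adjusted p = 0.0912, edgeR). Oligosaccharyltransferase subunits, which place the sugar on the protein, had 37 intervals at 7 of 8 genes, all but Rpn2, and a median of -0.02. An interval 0.313 kb from Stt3b, a catalytic subunit, had 41.5 ± 2.01 and 32.4 ± 7.08 CPM (edgeR adjusted p = 0.308).

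Among the enzymes that extend the branches, B4galt1 to B4galt4, B3gnt2 and B3gnt8 had 54 intervals at 5 of 6 genes (none at B4galt2) and a median of 0.01. The B4galt1 interval with the smallest p had 31.5 ± 6.75 and 43.6 ± 9.48 CPM (SD, n = 3; edgeR adjusted p = 0.227). The capping enzymes had 59 intervals at all 5 genes and a median of -0.09. In St6gal1, the sialyltransferase whose cap blocks galectin binding, the libraries had 10.5, 8.23 and 6.87 CPM in wild type and 2.21, 4.88 and 2.60 CPM in N440K (edgeR adjusted p = 0.0857). Another St6gal1 interval, at 23357406, was called lower when N440K replicate 2 was left out (edgeR adjusted p = 0.0268). The galectins, which read the branches, had 20 intervals at all 4 genes and a median of -0.04. Lgals9 had 27.6 ± 2.94 and 17.6 ± 5.08 CPM at the interval with the smallest p (edgeR adjusted p = 0.113). Of Mgat4c, Mgat4d and Mgat5b, relatives of the branching enzymes, only Mgat5b had tested intervals. They numbered 10 with a median of -0.27, and the one with the smallest p had 11.1 ± 2.72 against 5.22 ± 0.691 CPM (edgeR adjusted p = 0.0863).

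**Figure D5:**
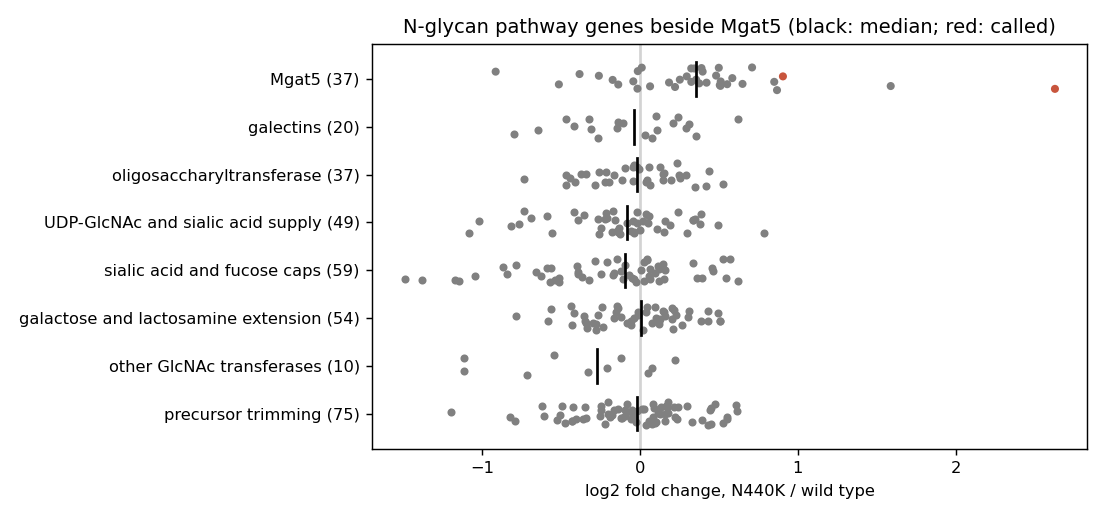
Log2 fold change (N440K over wild type) of each tested interval of the pathway lists and of Mgat5, with the number of intervals in brackets and the median as a black line. No interval of the 7 lists is called, beside 1.14% of all tested intervals, and their medians lie between -0.27 and 0.01, beside 0.36 for Mgat5.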

How the data were processed

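Per the labels' protocols, thymocyte chromatin was cross-linked and precipitated with the antibody, and input was kept. Build mm10 and, as tools with no role, MACS2, bedtools, Bowtie2 2.3.5, fastp 0.20.0, edgeR 3.38.2 and SAMtools 1.9 are listed, per the submitters' processing notes; the sources used here do not give how peaks were called. The authors deposited read counts for 93708 intervals and CPM values for 63098 of them. Whole reads came back from 100% of the CPM values (tolerance 0.01) and equalled the deposited counts; the test on them called 720 intervals.

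The filter filterByExpr, by group, left the same 63098 intervals. Their counts were TMM-scaled and given to edgeR (quasi-likelihood, two-sided, genotype only), with Benjamini-Hochberg adjustment over all intervals; p-values measure only the spread between libraries, which may be technical. CPM of untested intervals is the count over the library's constant. Genes were 21896 protein-coding gene bodies. Promoter stretches stop at the gene body. Counts of library pairs differed by chi-square per degree of freedom of 1.24 to 1.77, so none was a copy. In data simulated for this comparison over 63098 intervals, edgeR recovered 1 of 50 changes of 1.5-fold, 23 of 50 of 2-fold, 39 of 50 of 3-fold and 39 of 50 of 4-fold. The members and lists were chosen with earlier results of these data known. Named intervals were, per gene, the strongest in wild type, the one with the largest change and all called ones; for Mgat5 all were eligible; per pathway list, called ones and the one with the smallest p. Alternatives were DESeq2, limma voom, total counts as library size, no filter, an adjusted p of 0.01, leaving out each library, closer distances to genes and a block for the replicate number. Software was R 4.3.3, edgeR 4.0.16, limma 3.58.1, DESeq2 1.42.0 and Python 3.11.15.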

Additional observations from a re-analysis of the deposited data

Results flagged for a closer look

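Among the 21 intervals of these genes with too few reads to be tested, 2 had higher values in all N440K libraries than in all wild type libraries, both in Mgat5. The interval at 127331776 had 1, 3 and 4 reads in wild type and 6, 3 and 10 reads in N440K libraries, which is 1.19 ± 0.550 and 3.45 ± 1.69 CPM (SD, n = 3). The interval at 127412136 had 4, 6 and 6 reads and 9, 7 and 8 reads, which is 2.51 ± 0.0585 and 4.47 ± 0.445 CPM. At 5 others, all N440K libraries were lower: 2 in Mgat5 (127289597 and 127291561), 2 in or near Mgat3 (80173227 and 80203496) and 1 near Mgat4a (37561968). The untested Mgat5 intervals thus had as many on either side. At so few reads the differences were not tested. The share of all untested intervals with libraries apart is not given here, so nothing is read from these counts.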

How the results depend on the processing

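The number of called intervals over the whole table (720) was 60 with DESeq2, 318 with limma voom and 207 at an adjusted p of 0.01; the cause of the first pair was not tested, and the last asks for more. Without 1 library it was 289 (without N440K replicate 1) to 502 (without N440K replicate 2); leaving out any library but N440K replicate 2 moved it by over 1.5 times. The 290 higher and 430 lower calls became 172 and 146 with limma voom, and 263 and 481 with total counts as library size. Of the branching enzyme genes 2 intervals were called, and 1 with DESeq2 and at an adjusted p of 0.01, and 1 to 2 without 1 library. Of the pathway genes 0 were called, and 0 to 1 without 1 library. With the replicate block, 753 intervals were called over the whole table, 2 in the branching enzyme genes and 0 in the pathway. The labels do not say that the numbers pair libraries, and the 3 same-number pairs had correlations of their deviations of -0.004, 0.024 and 0.055. No called interval named here changed sign, and the other calls of the whole table were not checked for this. The summed signal of the 6 genes moved by less than the spread between libraries under every setting tried. In the simulation edgeR recovered 1 of 50 changes of 1.5-fold and 23 of 50 of 2-fold, so differences of that size can be missed. It made 109 calls there and 720 in the data. The adjusted threshold was therefore stricter in the simulation, and these shares need not hold for the data.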
